A study of Mus musculus with 20 samples.

Results

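The NRF2 electrophile and redox response was followed in endothelial cells of the mouse ear through 10 genes: Slc7a11, Hmox1, Nqo1, Gclc, Gclm, Txnrd1, Srxn1, Gsr, Osgin1 and Nfe2l2. They are textbook targets of the transcription factor NRF2 plus Nfe2l2, the gene that encodes NRF2 itself. The 10 genes were chosen with earlier results of these data known. Each is represented by the probe set that the platform annotation ties to that symbol alone, and by the brighter one where there are several. All 10 had such a probe set, out of 22180 genes so named, and Slc7a11 had a second one. DNFB raised 8 of the 10 genes in NICD mice and 9 in control mice, against 20% and 23.7% of all probe sets. The calls for Gclc in NICD mice and Osgin1 in control mice were lost when some single arrays were left out. Slc7a11 rose most, by an estimated 4.64 and 6.03 on the log2 scale over vehicle levels that lay below the array median. Its second probe set differed by only 0.24 and 0.33 without a filter and did not pass in either genotype. Of the 9 genes that were above the array median on every array, which leaves out Slc7a11, 7 and 8 rose. Nfe2l2 differed by 0.04 in NICD and 0.03 in control mice and did not pass the test in either.

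NRF2 is a transcription factor that is held at a low level by KEAP1, which presents it for ubiquitination and degradation. Electrophiles modify cysteines of KEAP1, NRF2 then accumulates, pairs with a small Maf protein and binds antioxidant response elements in DNA. Its targets import cystine, make and recycle glutathione and thioredoxin, reduce quinones and break down heme. DNFB (dinitrofluorobenzene) is itself an electrophile, a hapten that binds skin proteins and is used to elicit contact hypersensitivity.

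The cells were CD31+CD45-Ter119- endothelial cells sorted from collagenase-digested ears and measured on 20 Affymetrix gene arrays. NICD mice (NICD1-EC-OE; Pdgfb-CreERT2; R26-NICD by the genotype label) carry a Notch1 intracellular domain switched on in endothelium by tamoxifen, and gave 4 DNFB and 4 vehicle arrays. The growth protocol names a CDH5-iCre driver for them, and which driver was used is not settled here. Control mice, whose alleles the labels do not give, yielded 6 DNFB and 6 vehicle arrays. Per the labels' protocols all mice received 5 tamoxifen injections, DNFB mice were sensitised on the skin and challenged on the ear on day 5, ears were taken 24 hours later, and 1 ng of RNA was amplified. Ages and strains are not given in the sources used here. Whether DNFB and vehicle ears came from the same mice is not stated either, so p-values measure the spread between these arrays. NICD vehicle replicate 4 is a vehicle ear by title and a DNFB ear by description. It was kept as vehicle. The summed log2 signal of 10 neutrophil markers was 6.52 to 6.75 on the 4 NICD vehicle arrays, this one included. On the NICD DNFB arrays that signal was 8.96 to 9.26. Without NICD vehicle replicate 4, 7 of the 10 genes rose in NICD mice in place of 8, Gclc being the one lost. Gclc was also lost without NICD vehicle replicate 1, 2 or 3.

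The sequences just upstream of some of these genes are shown as a description, and their part in the response to DNFB was not tested. RefSeq windows on GRCm38.p6, running from 250 bases before to 50 after the annotated start, were found for 7 of the 10 genes. Hmox1, Gclc and Gsr were not among them. Both strands were searched for the antioxidant response element core TGACNNNGC (in 12.4% of all 32851 windows), the NRF2-small Maf site TGANTCAGC (1.19%), the AP-1 site TGAGTCA (5.2%) and the amino acid response element core TGATGCAA (0.895%). The AP-1 letters lie inside the NRF2-small Maf site when its open base is G or C, and some sequences fit both NRF2 motifs. Matches are in capitals below, for the transporter Slc7a11 (chr3:50443564-50443863, minus strand), Gclm (chr3:122245307-122245606, plus strand), Srxn1 (chr2:152105274-152105573, plus strand) and Nfe2l2 (chr2:75704614-75704913, minus strand).
Slc7a11: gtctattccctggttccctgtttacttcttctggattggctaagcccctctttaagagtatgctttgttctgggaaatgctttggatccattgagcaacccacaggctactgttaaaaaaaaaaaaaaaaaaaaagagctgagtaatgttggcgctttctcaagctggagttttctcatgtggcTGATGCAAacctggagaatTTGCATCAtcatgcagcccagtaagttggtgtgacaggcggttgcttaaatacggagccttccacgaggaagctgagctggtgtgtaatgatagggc
Gclm: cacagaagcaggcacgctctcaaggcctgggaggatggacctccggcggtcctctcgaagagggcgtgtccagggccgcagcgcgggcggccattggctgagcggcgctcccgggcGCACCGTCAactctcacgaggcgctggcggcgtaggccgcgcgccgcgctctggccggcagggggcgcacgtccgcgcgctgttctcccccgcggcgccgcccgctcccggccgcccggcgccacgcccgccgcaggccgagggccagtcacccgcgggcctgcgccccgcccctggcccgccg
Srxn1: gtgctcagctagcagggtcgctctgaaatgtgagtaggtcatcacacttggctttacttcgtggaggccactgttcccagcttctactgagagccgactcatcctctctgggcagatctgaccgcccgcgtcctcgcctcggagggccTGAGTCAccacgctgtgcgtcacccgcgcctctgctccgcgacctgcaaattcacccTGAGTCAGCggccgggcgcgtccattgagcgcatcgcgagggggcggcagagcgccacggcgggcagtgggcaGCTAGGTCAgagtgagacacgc
Nfe2l2: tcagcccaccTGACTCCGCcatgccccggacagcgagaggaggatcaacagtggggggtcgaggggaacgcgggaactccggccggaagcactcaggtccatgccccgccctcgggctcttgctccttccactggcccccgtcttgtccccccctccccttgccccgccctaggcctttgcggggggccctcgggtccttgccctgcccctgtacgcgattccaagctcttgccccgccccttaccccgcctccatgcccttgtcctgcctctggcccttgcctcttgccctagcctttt
Slc7a11 held 2 amino acid response element cores, at -66 and -47 from the start and on opposite strands, and no NRF2 motif in this window. Gclm held 1 antioxidant response element core at -134. Srxn1 held a NRF2-small Maf site at -45 that is also an AP-1 site, a second AP-1 site at -102 and an antioxidant response element core at 28. Nfe2l2 held 1 antioxidant response element core at -240. Of those not shown, Osgin1 had a NRF2-small Maf site at -99 that overlaps an AP-1 site, Txnrd1 had 1 antioxidant response element core in 1 of its 3 windows, and Nqo1 had none of the 4 motifs. These are letter matches in a short window, and binding was not measured here.

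The genotypes differ in more than the transgene. Array medians were 3.52 to 3.62 in NICD arrays and 3.87 to 3.98 in control arrays, and the lowest values were 1.18 to 1.30 and 0.412 to 0.590. Every NICD array had high Xist (8.47 to 9.07, against 2.27 to 3.16 in control arrays). Genotype, array set and sex therefore cannot be told apart, and each NICD-minus-control value stands beside the value after subtracting array medians. The Notch1 probe set was no higher in NICD arrays, at 9.76 and 9.71 in NICD DNFB and vehicle arrays and 9.76 and 9.82 in control DNFB and vehicle arrays. Whether this probe set can detect the transgene was not tested, so expression of the transgene was not checked here. The summed signal of 10 endothelial markers was 13.4 to 14.2 on the log2 scale over all 20 arrays, and Pecam1 and Cdh5 averaged above 11 in every group. Markers of other cells were present as well: the keratinocyte sum reached 13.2 in control DNFB ears and the pericyte sum 12.5 in vehicle ears. All levels below are deposited log2 values. Differences are given with their standard error (SE) and limma's p-value adjusted over 14886 probe sets, with a threshold of 0.05.

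Of the 10 genes DNFB raised 8 in NICD mice and lowered none, against 20% of all probe sets higher. In control mice it raised 9 and lowered none, against 23.7% higher. The median difference of the 10 was 1.45 in NICD and 1.57 in control mice, against 0.01 and -0.00 for all probe sets. DNFB and vehicle arrays did not overlap for 8 of the 10 genes in NICD mice (19.9% of probe sets, higher) or for 8 in control mice (13.6%, higher). Slc7a11 entered the test only through its DNFB arrays. The other 9 genes were brighter than at least 58.8% of probe sets on every array, and their median difference was 1.29 in NICD and 1.46 in control mice.

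**Figure D1:**
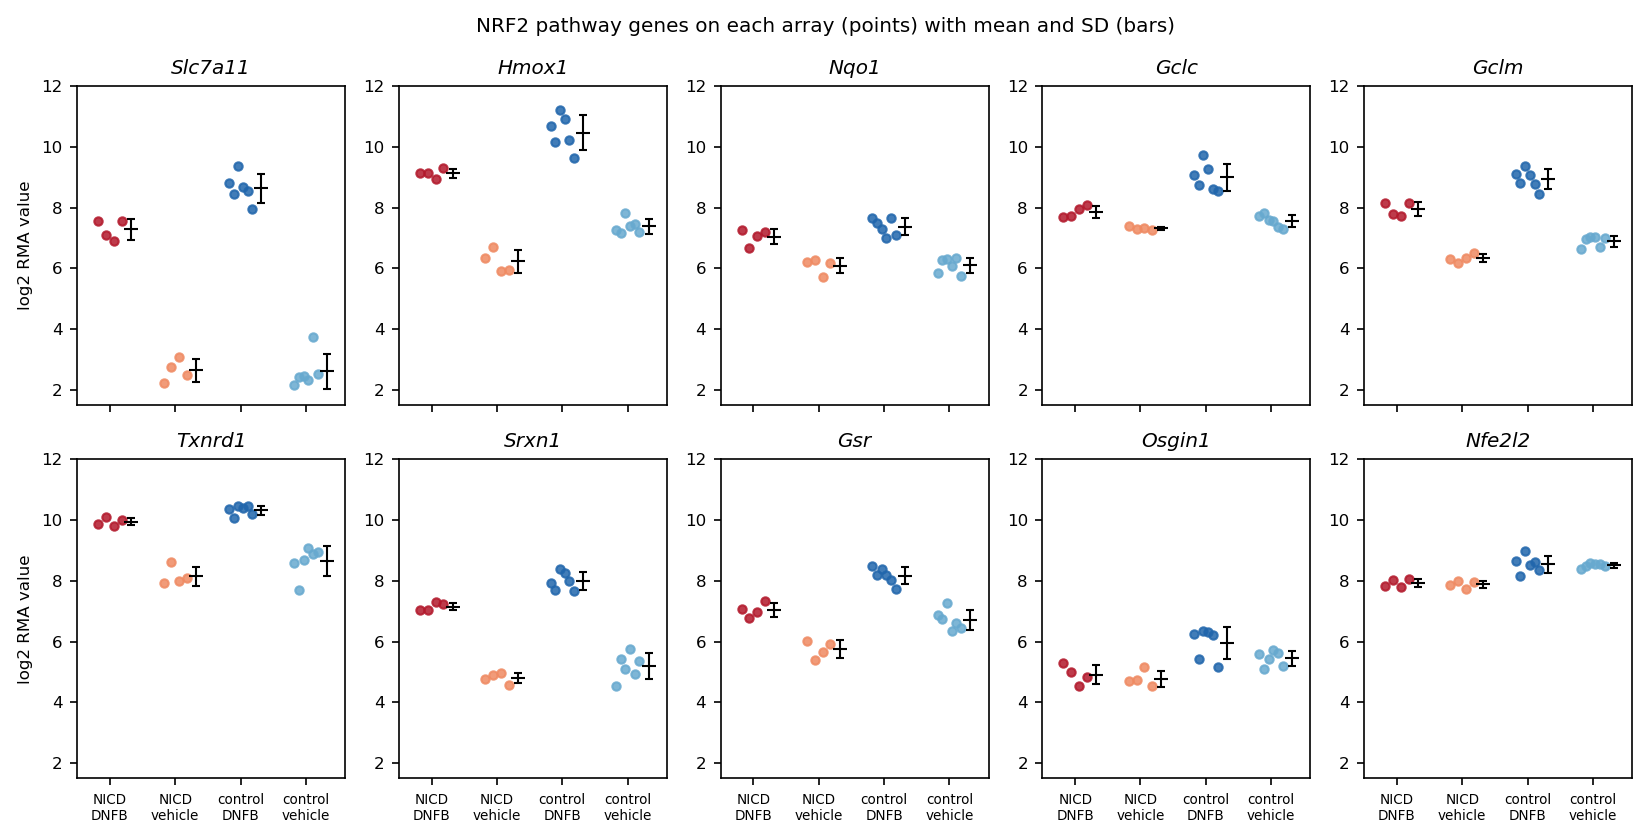
Deposited log2 level (y axis) of each of the 10 genes on all 20 arrays, 1 point per array, with each group's mean and SD as a bar beside its points. Groups run from NICD DNFB and NICD vehicle to control DNFB and control vehicle. Slc7a11 has the widest gap between DNFB and vehicle arrays, and Nfe2l2 shows no gap within either genotype.

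Slc7a11 encodes the cystine-importing subunit of system xc-, which supplies the cysteine for glutathione. Its level was 7.56, 7.09, 6.90 and 7.57 in NICD DNFB ears and 2.23, 2.76, 3.08 and 2.48 in NICD vehicle ears. In control mice it was 7.94 to 9.37 with a median of 8.60 in DNFB ears, against 2.15 to 3.74 with a median of 2.44 in vehicle ears. Every DNFB array lay at least 3.82 log2 units above every vehicle array of its genotype. Vehicle values were among the dim ones, brighter than 7.80% to 34.9% of probe sets in NICD and 10.7% to 46.9% in control arrays. The estimated differences were 4.64 ± 0.31 in NICD mice (adjusted p = 1.57e-09) and 6.03 ± 0.25 in control mice (adjusted p = 1.13e-12). With vehicle values this dim, they may be too small. The second Slc7a11 probe set, 17397421, disagreed: it stayed between 1.97 and 3.07 on all 20 arrays. Without a filter its DNFB difference was 0.24 in NICD mice (adjusted p = 0.482) and 0.33 in control mice (adjusted p = 0.128).

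The subunits of glutamate-cysteine ligase, which makes the first bond of glutathione, both rose in each genotype. Gclm, the modifier subunit, was 8.16, 7.79, 7.72 and 8.15 in NICD DNFB ears, against 6.31, 6.18, 6.35 and 6.52 in NICD vehicle ears. Control ears had 8.43 to 9.37 (median 8.95) with DNFB and 6.63 to 7.02 (median 6.97) with vehicle. The groups did not overlap in either genotype, and Gclm rose by 1.61 ± 0.17 in NICD mice (adjusted p = 2.49e-07) and by 2.04 ± 0.14 in control mice (adjusted p = 3.24e-10). Gclc, the catalytic subunit, was 7.68, 7.73, 7.96 and 8.09 in NICD DNFB ears and 7.38, 7.30, 7.34 and 7.27 in NICD vehicle ears. In control mice the level was 8.55 to 9.73 (median 8.91) with DNFB, against 7.30 to 7.82 (median 7.57) with vehicle. All 4 NICD DNFB arrays were below the lowest control DNFB array, by 0.46 or more as deposited and 0.15 or more after subtracting array medians. Gclc rose by 0.54 ± 0.20 in NICD mice (adjusted p = 0.0358) and by 1.43 ± 0.16 in control mice (adjusted p = 3.92e-07). The NICD call was lost without NICD vehicle replicate 1, 2, 3 or 4 or NICD DNFB replicate 3 or 4 (adjusted p = 0.0539 to 0.101), with no filter (0.0563) and after quantile normalization (0.0805).

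Gsr encodes glutathione reductase, which returns oxidised glutathione to its reduced form with NADPH. Its level was 7.07, 6.78, 6.98 and 7.35 in NICD DNFB ears, against 6.03, 5.39, 5.66 and 5.94 in NICD vehicle ears. Control arrays ran at 7.74 to 8.50 (median 8.19) with DNFB and 6.33 to 7.26 (median 6.68) with vehicle. DNFB and vehicle arrays separated within each genotype, and the differences were 1.29 ± 0.20 in NICD mice (adjusted p = 2.64e-05) and 1.46 ± 0.16 in control mice (adjusted p = 2.64e-07). Control vehicle levels reached those of the NICD DNFB ears, so the order of the middle groups was not resolved beyond their spread.

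Txnrd1 and Srxn1 serve the thioredoxin and peroxiredoxin systems. Txnrd1, cytosolic thioredoxin reductase, was 9.89, 10.09, 9.82 and 10.01 in NICD DNFB ears and 7.93, 8.61, 7.98 and 8.11 in NICD vehicle ears. Levels in control ears were 10.08 to 10.46 (median 10.37) with DNFB, against 7.70 to 9.07 (median 8.78) with vehicle. Its rises of 1.80 ± 0.22 in NICD mice (adjusted p = 1.69e-06) and 1.68 ± 0.18 in control mice (adjusted p = 1.51e-07) lay within 1 SE of each other. Srxn1, sulfiredoxin, which repairs overoxidised peroxiredoxins, was 7.05, 7.03, 7.29 and 7.24 in NICD DNFB ears and 4.75, 4.91, 4.96 and 4.59 in NICD vehicle ears. Among control arrays it was 7.65 to 8.39 (median 7.97) with DNFB and 4.55 to 5.76 (median 5.23) with vehicle. At least 1.89 log2 units separated every DNFB array from every vehicle array of its genotype, and Srxn1 rose by 2.35 ± 0.20 in NICD mice (adjusted p = 3.03e-08) and by 2.80 ± 0.17 in control mice (adjusted p = 1.03e-10).

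Hmox1 encodes heme oxygenase 1, the inducible enzyme that opens heme to biliverdin, iron and carbon monoxide. Its level was 9.13, 9.12, 8.93 and 9.32 in NICD DNFB ears, against 6.35, 6.70, 5.91 and 5.94 in NICD vehicle ears. The control arrays gave 9.64 to 11.20 (median 10.46) with DNFB, against 7.17 to 7.81 (median 7.32) with vehicle. No group overlapped another: NICD vehicle was lowest, then control vehicle, NICD DNFB and control DNFB. The DNFB rise was 2.90 ± 0.26 in NICD mice (adjusted p = 3.34e-08) and 3.09 ± 0.21 in control mice (adjusted p = 3.84e-10). Nqo1, a quinone reductase often used as the reporter of NRF2 activity, was 7.26, 6.68, 7.06 and 7.18 in NICD DNFB ears and 6.22, 6.26, 5.70 and 6.17 in NICD vehicle ears. Controls were at 6.99 to 7.67 (median 7.39) with DNFB and 5.76 to 6.33 (median 6.16) with vehicle. It rose by 0.95 ± 0.18 in NICD mice (adjusted p = 0.000309) and by 1.27 ± 0.15 in control mice (adjusted p = 6.18e-07), and its vehicle levels overlapped between the genotypes.

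Osgin1 encodes an oxidative stress-induced growth inhibitor, and its DNFB and vehicle arrays overlapped in both genotypes. Its level was 5.28, 5.00, 4.55 and 4.82 in NICD DNFB ears, against 4.71, 4.73, 5.15 and 4.53 in NICD vehicle ears. In control ears it was 5.17 to 6.34 (median 6.23) with DNFB and 5.11 to 5.71 (median 5.52) with vehicle. The difference was 0.13 ± 0.24 in NICD mice (adjusted p = 0.708) and 0.51 ± 0.20 in control mice (adjusted p = 0.0397). The control call was lost without control DNFB replicate 1, 3, 4 or 5 or control vehicle replicate 2, 3 or 6 (adjusted p = 0.0587 to 0.0926), with no filter (0.0575) and with only those groups in the fit (0.0663).

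Nfe2l2 itself did not differ detectably between DNFB and vehicle ears. Its level was 7.83, 8.02, 7.81 and 8.08 in NICD DNFB ears and 7.86, 8.01, 7.73 and 7.96 in NICD vehicle ears. In control ears it was 8.17 to 8.97 (median 8.56) with DNFB, against 8.38 to 8.58 (median 8.53) with vehicle. The DNFB difference was 0.04 (95% interval -0.23 to 0.32, adjusted p = 0.837) in NICD mice and 0.03 (-0.19 to 0.26, adjusted p = 0.83) in control mice. NRF2 protein was not measured here.

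**Figure D2:**
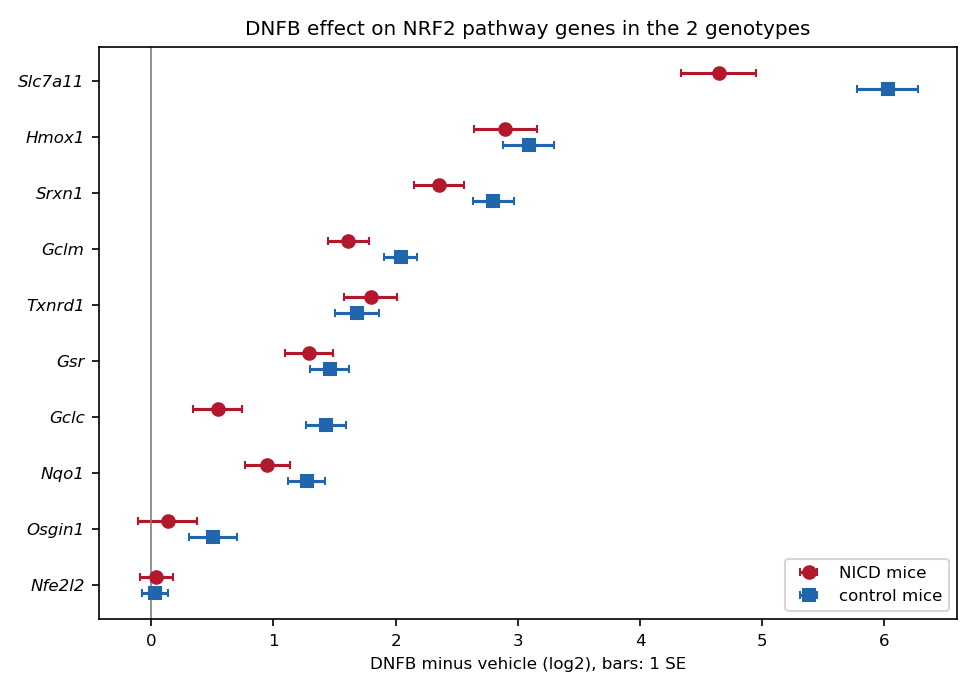
DNFB-minus-vehicle difference of each of the 10 genes on the log2 scale (x axis), with bars of 1 SE, in NICD and control mice. Slc7a11, Hmox1 and Srxn1 lie at 2.35 or more in both genotypes, and Nfe2l2 lies at 0.04 and 0.03.

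**Figure D3:**
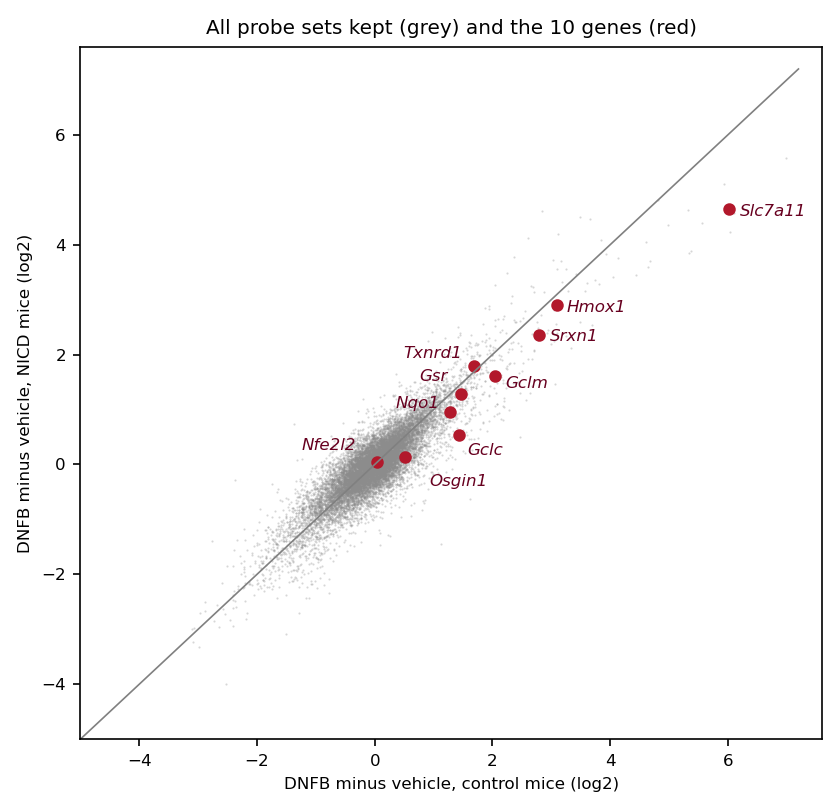
DNFB-minus-vehicle difference in NICD mice (y axis, log2) against that in control mice (x axis, log2) for 14886 probe sets in grey and the 10 genes in red, with the line of equality. Of the 10 genes, 8 lie below the line, and Txnrd1 and Nfe2l2 lie above it by 0.11 and 0.01.

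Whether the response to DNFB itself differed between the genotypes was tested as the difference of the DNFB effects, NICD minus control. None of the 10 genes passed limma's adjusted test, where 0.0134% of all probe sets did. Slc7a11 gives no size for this difference, since both of its DNFB effects rest on dim vehicle values (adjusted p = 0.194). Of the other 9 genes 1, Gclc, had an unadjusted p under 0.05, as did 10.6% of all probe sets. For Gclc the difference was -0.89 ± 0.26 (95% interval -1.42 to -0.35, adjusted p = 0.205). The sign was negative for 7 of these 9 genes, against 47.7% of all probe sets, and their median was -0.32, against 0.02. For Hmox1 the difference was -0.19 with an interval of -0.88 to 0.50, for Srxn1 -0.44 (-0.997 to 0.11), for Gclm -0.43 (-0.88 to 0.02) and for Txnrd1 0.11 (-0.47 to 0.70). The intervals of these last 4 genes include 0, and they include both smaller and larger rises in NICD mice.

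In DNFB ears, NICD arrays were lower than control arrays for 8 of the 10 genes and higher for none, against 35.1% of all probe sets lower. After subtracting array medians 6 of the 10 were lower, against 8.12% of probe sets. The median of the 10 was -1.01 against -0.27 for all probe sets as deposited, and -0.64 against 0.10 after centring. The groups did not overlap for 7 of the 10 genes as deposited (21.7% of probe sets, lower) and for 5 after centring (4.74%). The comparison shares its arrays with the DNFB effects above.

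The lower values in NICD DNFB ears covered the transporter, the glutathione enzymes and Hmox1. Slc7a11 averaged 7.28 ± 0.34 in NICD DNFB ears (SD, n = 4) and 8.63 ± 0.47 in control DNFB ears (SD, n = 6), a difference of -1.35 ± 0.28 that was -0.98 after centring. The adjusted p was 0.000992 as deposited and 0.0115 after centring. Hmox1 differed by -1.34 ± 0.23 as deposited (adjusted p = 0.000235) and by -0.97 after centring (adjusted p = 0.00386). Gsr, Gclc and Gclm differed by -1.13, -1.13 and -0.98 as deposited and by -0.76, -0.76 and -0.60 after centring, with a highest adjusted p of 0.00514. Osgin1 differed by -1.04 as deposited and -0.67 after centring (adjusted p = 0.0251). The calls for Srxn1 (-0.83 as deposited, -0.46 after centring, adjusted p = 0.0739) and Nfe2l2 (-0.61 and -0.24, adjusted p = 0.150) were lost after centring. Txnrd1 (-0.37, and 0.00 after centring) and Nqo1 (-0.32, and 0.05 after centring) did not pass on either scale, but Txnrd1 passed with only the DNFB groups in the fit (adjusted p = 0.024). Some markers of cell types differed between these groups too. Of the 10 endothelial markers 3 were higher and none lower in NICD than control DNFB ears, and 9 were higher after centring, against 5.45% and 20.7% of all probe sets. Their summed signal was 13.7 to 13.9 in NICD DNFB ears and 13.4 to 13.8 in control DNFB ears. Of 4 platelet markers 3 were lower as deposited and 1 after centring, and of 5 fibroblast markers 2 and 1. Among all probe sets 35.1% were lower as deposited and 8.12% after centring. Of 6 pericyte markers 2 were lower and 1 higher as deposited, and 1 and 1 after centring. Of 8 macrophage and monocyte and 8 keratinocyte markers 1 each was lower as deposited and none after centring. None of 7 neutrophil and 4 pan-leukocyte markers passed on either scale. The part of the marker differences in the lower values of the members was not tested.

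In vehicle ears 5 of the 10 genes were lower in NICD arrays (Hmox1, Gsr, Osgin1, Nfe2l2 and Gclm) and none was higher, against 33.0% of all probe sets lower. After centring only Hmox1 and Gsr remained lower of the 10, against 6.54% of probe sets. The groups did not overlap for 4 of the 10 as deposited (22.2% of probe sets, lower) and for 1, Hmox1, after centring (4.98%). Hmox1 averaged 6.22 ± 0.37 in NICD vehicle ears (SD, n = 4) and 7.38 ± 0.24 in control vehicle ears (SD, n = 6). Its difference was -1.15 as deposited (adjusted p = 0.00104) and -0.83 after centring (adjusted p = 0.0176). Gsr averaged 5.75 ± 0.29 in NICD vehicle ears (SD, n = 4) and 6.71 ± 0.33 in control vehicle ears (SD, n = 6). Its difference was -0.96 as deposited (adjusted p = 0.00056) and -0.63 after centring (adjusted p = 0.0168). Slc7a11 (0.03, and 0.36 after centring, dim in both genotypes) and Gclc (-0.24, and 0.09 after centring), which were lower in NICD DNFB ears, did not pass in vehicle ears. For Nqo1 the difference was 0.00 as deposited and 0.33 after centring, and neither passed. The call for Osgin1 was lost without NICD vehicle replicate 1, 2 or 4 (adjusted p = 0.0544 to 0.0755). Txnrd1 passed without control vehicle replicate 2 (-0.67, adjusted p = 0.0014) or NICD vehicle replicate 2 (-0.64, adjusted p = 0.0264), and Srxn1 without control vehicle replicate 1 (-0.51, adjusted p = 0.0248).

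**Figure D4:**
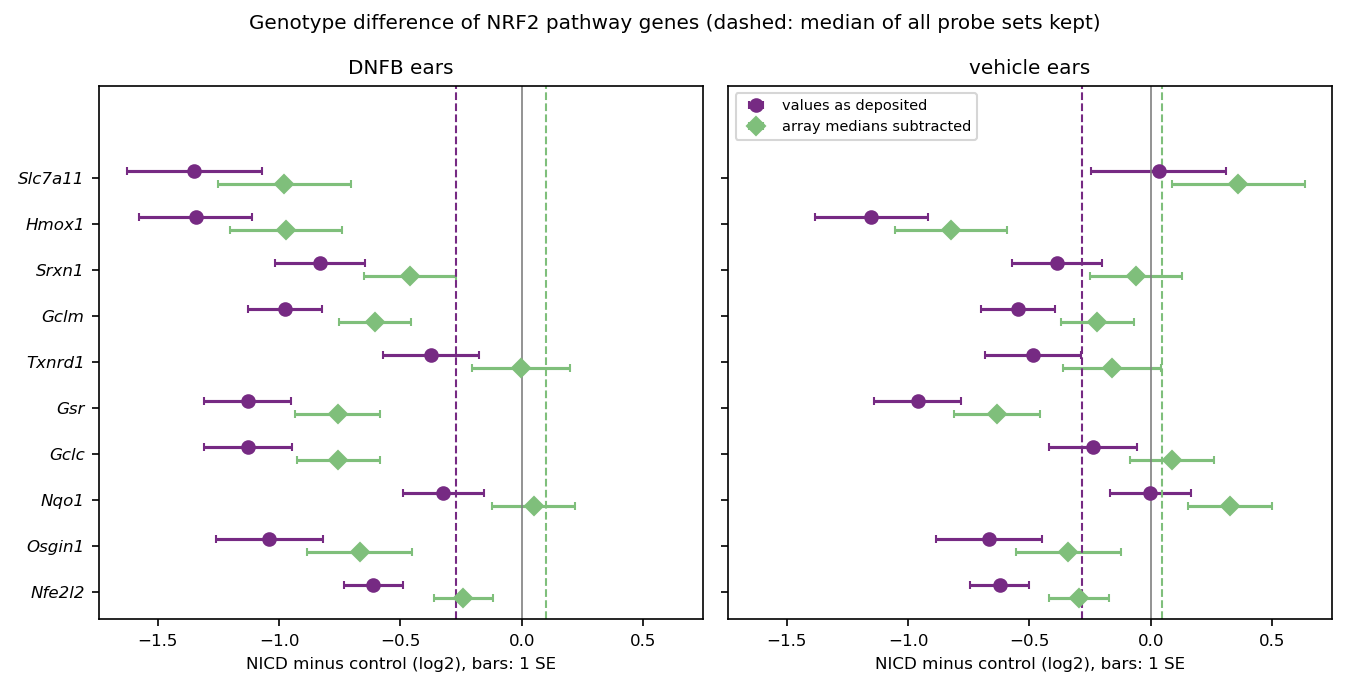
NICD-minus-control difference of each of the 10 genes (x axis, log2, bars of 1 SE) in DNFB ears on the left and vehicle ears on the right, as deposited (circles) and after subtracting array medians (diamonds). Dashed lines mark the median of all probe sets on each scale, which centring moves from -0.27 to 0.10 in DNFB ears and from -0.28 to 0.05 in vehicle ears.

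The rest of the pathway was followed with 7 lists of 79 genes, 67 of which passed the filter. DNFB raised 27 and lowered 9 of the 67 in NICD mice, and raised 29 and lowered 15 in control mice. Among all probe sets 20% were higher and 18.1% lower in NICD mice, and 23.7% and 23.6% in control mice. Of 4 genes that supply NADPH, 3 rose and 1 fell in each genotype. The pentose phosphate enzyme Pgd rose by 1.53 ± 0.15 in NICD mice and 1.99 ± 0.12 in control mice (adjusted p = 1.22e-07 and 1.22e-10), and malic enzyme Me1 by 1.01 ± 0.26 and 1.48 ± 0.21 (adjusted p = 0.00423 and 8.9e-06). Isocitrate dehydrogenase Idh1 fell by 0.66 ± 0.19 in NICD mice and fell by 0.73 ± 0.16 in control mice (adjusted p = 0.00924 and 0.00067).

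Counts in this paragraph stand against 20% of all probe sets higher and 18.1% lower in NICD mice, and 23.7% and 23.6% in control mice. Of 13 other cystine, glutathione and thioredoxin genes, 7 rose and 1 fell in NICD mice, and 7 rose and 2 fell in control mice. The glutathione-recycling cyclotransferase Ggct rose by 1.07 ± 0.23 in NICD and 1.28 ± 0.19 in control mice, and thioredoxin Txn1 by 0.62 ± 0.11 and 0.56 ± 0.09. Slc3a2, the partner chain of Slc7a11, was already at 10.7 in control vehicle ears, and its differences of 0.05 in NICD and 0.19 in control mice did not pass (adjusted p = 0.779 and 0.141). Gpx4, which detoxifies lipid peroxides, fell by 0.85 ± 0.13 in NICD mice and fell by 0.80 ± 0.11 in control mice (adjusted p = 3.44e-05 and 4e-06). Of 6 heme and iron genes, 2 rose in each genotype and 1 fell in control mice. Biliverdin reductase Blvrb rose by 0.99 ± 0.13 in NICD and 1.09 ± 0.11 in control mice, and ferritin heavy chain Fth1 by 0.30 ± 0.09 and 0.49 ± 0.07. The constitutive heme oxygenase Hmox2 did not pass in NICD mice (0.09, adjusted p = 0.57) and fell by 0.24 in control mice (adjusted p = 0.0303).

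Of 17 electrophile detoxification enzymes, 4 rose and 5 fell in NICD mice, and 6 rose and 7 fell in control mice. Among all probe sets 20% rose and 18.1% fell in NICD mice, and 23.7% and 23.6% in control mice. The count of rises in NICD mice is near that share. Gsta4, a glutathione transferase for lipid aldehydes, rose by 2.34 ± 0.33 in NICD mice and 3.24 ± 0.27 in control mice (adjusted p = 1.21e-05 and 7.32e-09). The aldo-keto reductase Akr1b8 rose by 1.97 ± 0.22 in NICD mice and 1.64 ± 0.18 in control mice (adjusted p = 6.33e-07 and 2.38e-07). Epoxide hydrolase Ephx1 fell by 2.21 ± 0.16 in NICD mice and fell by 1.73 ± 0.13 in control mice (adjusted p = 3.54e-09 and 1.25e-09), and aldehyde oxidase Aox1 fell by 1.31 ± 0.26 and fell by 1.49 ± 0.21. Gstm1 fell by 0.92 ± 0.17 in NICD mice (adjusted p = 0.00026), whereas its -0.34 in control mice did not pass (adjusted p = 0.0513). The difference between those effects did not pass either (adjusted p = 0.355). Carbonyl reductase Cbr1 fell by 1.15 ± 0.21 in NICD mice and fell by 0.95 ± 0.17 in control mice.

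For the next 2 lists too, the shares of all probe sets were 20% higher and 18.1% lower in NICD mice, and 23.7% and 23.6% in control mice. Of 9 superoxide and peroxide genes, 5 rose and 1 fell in NICD mice, and 4 rose and 2 fell in control mice. Mitochondrial superoxide dismutase Sod2 rose by 1.91 ± 0.14 in NICD mice and 2.03 ± 0.12 in control mice, and extracellular Sod3 by 1.74 ± 0.30 and 2.24 ± 0.24. Catalase, Cat, fell by 0.60 ± 0.17 in NICD mice and fell by 0.74 ± 0.14 in control mice. Among 9 genes of the ATF4 list, Atf4 itself included, 3 rose and 1 fell in NICD mice, and 4 rose and 1 fell in control mice. ATF4 targets answer amino acid shortage and like Slc7a11 can carry amino acid response elements. Asparagine synthetase Asns rose by 1.99 ± 0.14 in NICD and 1.77 ± 0.11 in control mice (adjusted p = 2.47e-09 and 1.85e-10), and Psat1 of serine synthesis by 1.13 ± 0.29 and 1.10 ± 0.24. Atf3 went the other way, at -0.52 in NICD and -0.54 in control mice (adjusted p = 0.00717 and 0.000752). Trib3 differed by -0.27 in NICD and -0.12 in control mice and Ddit3 by -0.09 and -0.27, and neither of these genes passed.

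Among 9 regulators of NRF2, 3 rose in each genotype and 1 fell in control mice. The shares of all probe sets were 20% higher and 18.1% lower in NICD mice, and 23.7% and 23.6% in control mice. The small Maf partner Maff rose by 1.25 ± 0.23 in NICD and 1.07 ± 0.19 in control mice, Mafg by 0.44 ± 0.15 and 0.61 ± 0.12, and Sqstm1, which can sequester KEAP1, by 0.44 ± 0.12 and 0.52 ± 0.10. Keap1 differed by 0.06 in both genotypes (adjusted p = 0.775 in NICD and 0.647 in control mice). Bach1, a repressor that competes for the same elements, differed by 0.11 in NICD and 0.16 in control mice (adjusted p = 0.59 and 0.284). Between genotypes 2 of the 67 pathway genes were higher and 32 lower in NICD than control DNFB ears as deposited, and 6 higher and 9 lower after centring. Of all probe sets 5.45% were higher and 35.1% lower there as deposited, and 20.7% and 8.12% after centring. In vehicle ears 1 of the 67 was higher and 28 lower as deposited, and 4 higher and 6 lower after centring. The shares of all probe sets there were 2.88% higher and 33.0% lower, and 11.9% and 6.54% after centring. None of the 67 passed for the difference of the DNFB effects.

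**Figure D5:**
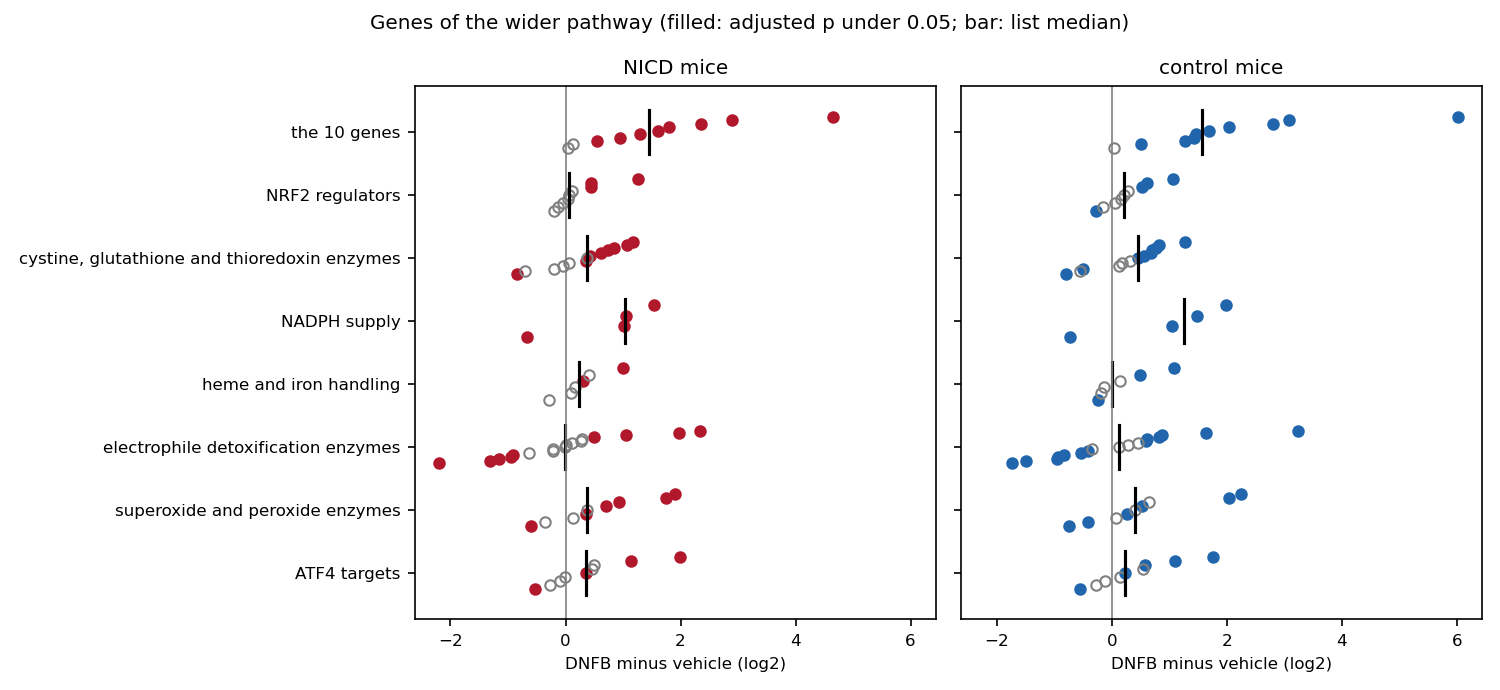
DNFB-minus-vehicle difference (log2) of the 10 genes and of the 67 other pathway genes by list, 1 point per gene, NICD mice left and control mice right. Filled points have an adjusted p under 0.05 and bars mark list medians. NADPH supply holds 3 genes at 1.01 or more and Idh1 below 0, and the detoxification list spreads from -2.21 to 3.24.

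Some markers of other cells moved with DNFB as well. Among all probe sets 20% rose and 18.1% fell in NICD mice, and 23.7% and 23.6% in control mice. In these bulk samples fewer cells of a type and less RNA per cell cannot be told apart. Of 10 neutrophil markers 7 passed the filter, and 6 rose in NICD and 7 in control mice. Under the array median on every vehicle array were 6 of the 10 in NICD and 7 in control mice. Such markers can enter the test through their DNFB arrays, so the filter itself favours a count of rises. The summed log2 signal of the 10 was 8.96 to 9.26 in NICD DNFB ears and 6.52 to 6.75 in NICD vehicle ears. In control mice it was 8.71 to 10.9 in DNFB ears, against 6.56 to 6.86 in vehicle ears. Ptprc, which encodes the CD45 that the sort excludes, rose by 1.56 ± 0.32 in NICD and 1.21 ± 0.26 in control mice. Summed pan-leukocyte signal over 4 markers was 6.42 to 7.42 in NICD DNFB and 5.61 to 5.71 in NICD vehicle ears, and 6.48 to 7.83 in control DNFB and 5.68 to 6.38 in control vehicle ears. For 10 macrophage and monocyte markers (4 of 8 tested rose in each genotype) it was 8.47 to 9.06 in NICD DNFB and 7.54 to 7.88 in NICD vehicle ears, and 8.63 to 9.20 in control DNFB and 7.56 to 8.26 in control vehicle ears. The macrophage marker Adgre1 and the neutrophil marker Ly6g averaged 3.30 and 3.51 or less in every group and did not pass the filter.

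For 4 platelet markers (3 rose in NICD and 4 in control mice) the summed signal was 7.70 to 8.63 in NICD DNFB and 5.92 to 6.46 in NICD vehicle ears, and 8.29 to 10.01 in control DNFB and 6.37 to 7.83 in control vehicle ears. Among 8 keratinocyte markers 2 rose in NICD mice, and 3 rose and 1 fell in control mice. The NICD count is near the 20% of all probe sets that rose there. The median difference of the 8 was 0.003 in NICD and 0.44 in control mice, and within the list Krt6a rose by 4.82 in both genotypes. The keratinocyte sum was 11.8 to 12.5 in NICD DNFB and 11.5 to 12.3 in NICD vehicle ears, and 11.9 to 13.2 in control DNFB and 11.4 to 12.3 in control vehicle ears. Of 6 pericyte markers 4 fell in NICD and 5 in control mice, with sums of 11.1 to 11.5 in NICD DNFB, 12.04 to 12.5 in NICD vehicle, 11.5 to 12.3 in control DNFB and 12.3 to 12.5 in control vehicle ears. Of 5 fibroblast markers 2 rose and 1 fell in NICD mice and 3 rose in control mice, with sums of 9.78 to 11.1 in NICD DNFB, 9.89 to 10.4 in NICD vehicle, 10.9 to 11.7 in control DNFB and 9.96 to 10.9 in control vehicle ears. Of the 10 endothelial markers 4 fell and 1 rose in NICD mice, and 8 fell in control mice. The part of these cells in the rises of the 10 genes was not tested.

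The genes whose levels followed the members most closely were ranked by Pearson's r over the 20 arrays, as a description. The arrays share the 4 groups, so any gene that moves with DNFB ranks high. For Slc7a11 they were the arginine transporter Slc7a1 (r = 0.988), Plau (0.984) and Timm23 (0.983). For Hmox1 they were Nop58 (0.986), Wdr77 (0.984) and Gtpbp4 (0.981), with Gclm next at 0.981, and for Gclm they were Gtpbp4, Nop14 and Nop58 at 0.980 to 0.984. For Txnrd1 they were Rrp9 (0.981), Mthfd2 (0.976) and Wdr74 (0.976), and for Nfe2l2 they were Aqp5 (0.934), Vhl (0.925) and Nasp (0.915). With each group's mean removed, the gene closest to Osgin1 was Sqstm1 (r = 0.796), and the member closest to Hmox1 was Nfe2l2 (0.697). Nfe2l2 had only rank 48 for Hmox1, where Mrvi1, Plk2 and Ctsl came first. For Slc7a11, Nqo1, Gclc, Gclm, Txnrd1, Srxn1, Gsr and Nfe2l2 the closest were Gprin1, Fntb, Baz2b, Gucy1a1, Bud31, Klhl13, Erbin and Tex10. The closest other member had a rank from 25 (for Nfe2l2) to 1657 (for Txnrd1).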

How the data were processed

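Expression was read from 20 arrays in 4 groups taken from the sample titles. The deposited values are log2 intensities per probe set, summarised by the authors with RMA in Affymetrix Expression Console, per the submitters' processing notes. Versions and annotation are not given in the sources used here. Raw intensities were not analysed here, and the number of arrays limits precision. Replicates of a group correlated at r = 0.944 to 0.981.

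Of 41345 probe sets, 23521 have 1 symbol, 1814 several and 16010 none. Kept were 14886 with 1 symbol that exceeded the array median on at least 4 arrays. The 4 group means were estimated together in limma 3.58.1 (all 20 arrays, R 4.3.3, moderated tests, Benjamini-Hochberg over the probe sets kept, adjusted p 0.05). Alternatives were no filter, a 60th-percentile filter, median centring, quantile normalization, trended and robust variance, only the groups compared, replicate blocks and each array left out. Median centring subtracts each array's median over all probe sets. A gene's brightest probe set stands for it. Summed marker signal adds values on the linear scale and takes log2.

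The fit was tested on simulated data. Figures used matplotlib 3.10.9.

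The members, lists, motifs and tests were chosen with earlier results of these data known. The rule for named genes takes every member, pathway genes from the fixed lists and the 3 most like genes by r. Promoter windows are RefSeq's on GRCm38.p6. The erythroid marker list had 0 of 4 genes with a probe set of 1 symbol.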

Additional observations from a re-analysis of the deposited data

Results flagged for a closer look

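In each group of each of the 10 genes, 40 sets of arrays in all, the highest and lowest array was compared with its nearest neighbour, and 3 stood apart by Dixon's test. Chance flags about 1 in 20 such groups. Slc7a11 in control vehicle replicate 5 was the highest of its 6 arrays at 3.74, with the next at 2.53. It was still at least 4.19 log2 units below the lowest control DNFB array. Txnrd1 in control vehicle replicate 2 was the lowest of its 6 at 7.70, with the next at 8.57. Nqo1 in NICD vehicle replicate 3 was the lowest of its 4 at 5.70, with the next at 6.17.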

How the results depend on the processing

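DNFB calls for Slc7a11 (main probe set), Hmox1, Srxn1, Gclm, Txnrd1, Gsr and Nqo1 kept their direction and side of the threshold in both genotypes under every alternative run. Genotype values depended most on scaling. Probe sets called for NICD in DNFB ears numbered 6036, and 3553 after quantile normalization. In vehicle ears they numbered 5343, then 2741 after median centring and 2412 after quantile normalization, and the members called there were 5, 2 and 3. For the difference of DNFB effects 2 probe sets were called, with 1 under no filter, 1 after quantile normalization, 27 with trended and robust variance and 0 to 29 with 1 array left out. None of these alternatives called a member for that difference.

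Small values changed sign. In vehicle ears Slc7a11 became -0.037 after quantile normalization and -0.11 to 0.26 with 1 array left out, Nqo1 became 0.33 after centring, 0.26 after quantile normalization and -0.068 to 0.13 with 1 array left out, and Gclc became 0.087 after centring. Nqo1 in DNFB ears became 0.049 after centring. The Nfe2l2 DNFB difference became -0.030 in NICD and -0.039 in control mice after quantile normalization. With 1 array left out it ranged from -0.0078 to 0.085 in NICD and -0.053 to 0.11 in control mice, and their difference from -0.065 to 0.096. The cause of these changes was not tested.

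Same-numbered DNFB and vehicle arrays deviated together weakly (r = 0.0515 to 0.227 in NICD, 0.0418 to 0.269 in control mice), not above 0.1 in every pair. Their median r was 0.093 in NICD and 0.097 in control mice, against -0.052 and -0.033 for different numbers. The closest vehicle array had the same number for 3 of 4 NICD and 4 of 6 control DNFB arrays. Same numbers may thus mark the same mouse, but the labels do not say so, and the main fit took no pairs. With the replicate number as a fixed block 3 probe sets were called for the difference of effects, and 5702 and 7139 for DNFB in NICD and control mice. As a random block it gave 20, 6011 and 7357, and neither block changed the number of members called. No block was run for NICD against control, and a fit of only the groups compared does not apply to the difference, which uses all 4 groups.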
